A study of Mus musculus with 12 samples.

Results

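The 9 genes described here are the ligand Igf1, the receptors Igf1r and Igf2r, and the IGF binding protein genes Igfbp2 to Igfbp7, taken by symbol from the 23329 genes listed in each count table. They were measured by strand-specific mRNAseq in cultured stromal cells from mouse small intestine, labelled intestinal myofibroblasts, that were stimulated with LPS or given vehicle (PBS). The 4 groups were embryonic PBS, embryonic LPS, adult PBS and adult LPS, with 3 libraries in each. Embryonic cells came from E14.5 embryos, pooled for each culture according to the study's methods, and adult cells came from adult mice. Mice were of the C57BL6/J background by the methods, with no genetic change given for these samples, and no exact adult age is given in the sources used here. LPS from E. coli O111:B4 was used for 6 h at a labelled concentration of 10 µg/µl. All groups were grown on plastic to passage 2 or 3 in medium with fetal bovine serum and Y27632, after the epithelium had been shaken off and the remaining tissue digested.

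Insulin-like growth factor 1 is a secreted growth factor that binds the tyrosine kinase receptor encoded by Igf1r, which relays the signal through insulin receptor substrates, PI3K and AKT. Igf2r encodes the cation-independent mannose 6-phosphate receptor, which takes up IGF2 for degradation in lysosomes and does not relay the growth signal. The IGF binding proteins are secreted carriers that hold IGFs away from the receptor or release them when cut by proteases. In the intestine, stromal cells beneath the epithelium are a known local source of IGF1 and of several binding proteins.

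The libraries held 18850224 to 32672370 counts assigned to genes on the sense strand, and each of the 9 genes passed the filter of more than 0.5 CPM in all libraries of at least 1 group. CPM means counts scaled to the library size after TMM normalization, and 3 counts, the smallest level taken as detected, correspond to 0.0897 to 0.145 CPM. The summed level of 8 stromal markers was between 20787 and 39327 CPM in every library. Pdgfra, a stromal receptor gene among them, was low in embryonic libraries, between 2.24 and 5.84 CPM, against 28.5 to 120.9 CPM in adult libraries. Libraries of a stage with the same number are called a culture below, although the labels give only the number. Cultures of a stage differed in other cell markers. The summed level of 10 macrophage markers was 232, 353 and 2350 CPM in embryonic PBS libraries 1, 2 and 3, and 108, 9.30 and 27.4 CPM in adult PBS libraries. The sum of 8 endothelial markers was 11.1 to 39.5 CPM in embryonic libraries, 23.1 to 27.3 CPM in adult libraries numbered 1, 1781 to 1855 CPM in those numbered 2 and 374 to 403 CPM in those numbered 3. The sum of 4 mesothelial markers (Msln, Upk3b, Lrrn4 and Upk1b) was 125, 673 and 127 CPM in embryonic PBS libraries and 1302, 468 and 647 CPM in adult PBS libraries. The sum of 7 epithelial markers was 19.5 to 117 CPM, with Krt18, a keratin gene, highest in that list at 12.6 to 81.0 CPM and Epcam, a defining epithelial marker, between 0.0388 and 0.488 CPM. Because these are bulk cultures, fewer cells of a type and less RNA per cell cannot be told apart.

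Igfbp4 and Igfbp7, the members that passed the test between stages, have unlike sequences just before their transcription starts. The 100 bases that precede the start listed by RefSeq (GRCm38.p6) are printed for both, 5′ to 3′ on the strand of the gene. The Igfbp4 start used here lies inside the span that RefSeq gives for the gene, which has an earlier start as well. Capitals mark the TATA box letters TATAAA and the GC box letters GGGCGG on either strand (CCGCCC when read on the other strand).
Igfbp4, chr11:99041144-99041243, plus strand: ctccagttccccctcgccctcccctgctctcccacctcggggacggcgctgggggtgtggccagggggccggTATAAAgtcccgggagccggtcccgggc
Igfbp7, chr5:77408046-77408145, minus strand: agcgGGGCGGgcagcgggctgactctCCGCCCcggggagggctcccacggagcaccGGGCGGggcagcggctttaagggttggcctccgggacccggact
The Igfbp4 sequence holds 1 TATA box that begins 28 bases before the start, and no GC box. The Igfbp7 sequence holds 3 GC boxes in the printed bases and 4 in the 250 bases before the start, and no TATA box. Among all 32851 promoter windows of 250 bases in the table, 32.7% held the GC box letters and 12.4% held the TATA box letters. Of the other members, Igf1r had 2 GC boxes, Igf2r had 3, and Igfbp2 had 3 at the first of its 2 listed starts. Igfbp6 had 1 TATA box, at 148 bases before the start, where such a box is not usually placed. Igf1, Igfbp3 and Igfbp5 had neither. The letters of the NF-kB motif, present in 7.25% of all windows, were found before the Igfbp5 start as 2 overlapping matches and before no other member. These are matches of letters in a window and no binding was measured.

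Levels of different genes were compared per kb of annotated exon, because long transcripts collect more reads. Igfbp2 had the highest level of the 9 members in every group, with 730 ± 204 CPM per kb in embryonic PBS and 1387 ± 549 CPM per kb in adult PBS (mean ± SD, n = 3). In embryonic PBS stroma, Igfbp3 (203 ± 94.7 CPM per kb) and Igfbp7 (195 ± 41.4 CPM per kb) followed, and their libraries overlapped. Igf2r, Igfbp6, Igf1 and Igf1r came next, with means from 29.1 down to 9.55 CPM per kb, each overlapping the next in order. Igfbp4 (3.40 ± 1.68 CPM per kb) and Igfbp5 (0.697 ± 0.624 CPM per kb) were last. Igfbp4 overlapped the range of Igf1 but not that of Igf1r, and Igfbp5 overlapped no other member. In adult PBS stroma, Igfbp7 was second with 553 ± 97.5 CPM per kb, above and without overlap with Igfbp3 at 161 ± 58.8 CPM per kb. Igfbp4 stood above Igf2r, Igf1 and Igf1r in adult PBS, at 24.5 ± 9.62 CPM per kb, and its mean was below those of all 3 in embryonic PBS.

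**Figure D1:**
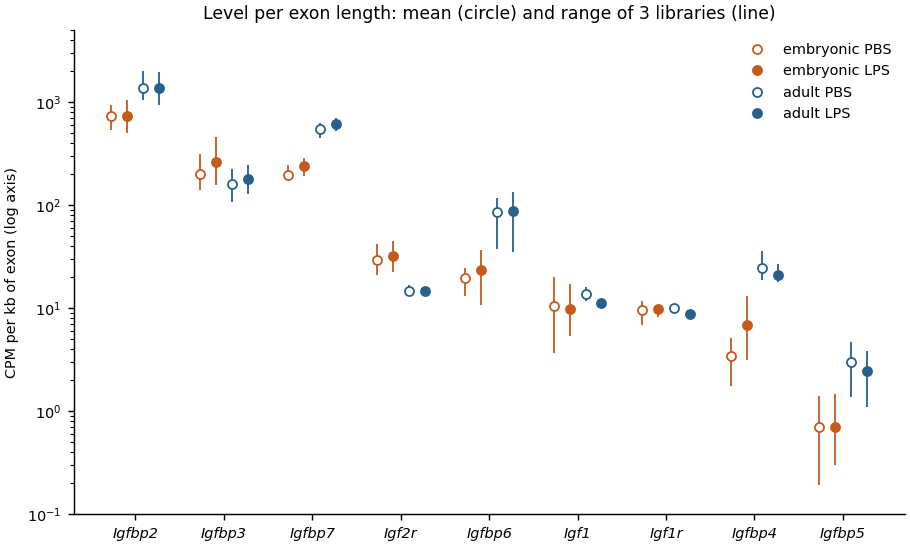
Level of each member per kb of annotated exon (CPM per kb, log axis), with genes in the order of their embryonic PBS means. Circles are means of 3 libraries and lines run from the lowest to the highest library; Igfbp2 is at the top in all 4 groups and Igfbp5 at the bottom.

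The 6 binding proteins together summed to 1151 ± 130 CPM per kb in embryonic PBS and 2214 ± 574 CPM per kb in adult PBS. That sum was 65.0 to 287 times the Igf1 level per kb across embryonic PBS libraries and 136 to 181 times across adult PBS libraries. Igfbp2 made up 51.1% to 72.5% of the sum in embryonic PBS libraries and 56.0% to 70.2% in adult PBS libraries, which overlap. The share of Igfbp3 was 11.995% to 30.0% in embryonic PBS and 5.28% to 11.7% in adult PBS libraries, without overlap. The share of Igfbp4 was 0.157% to 0.396% in embryonic PBS and 0.663% to 1.91% in adult PBS, also without overlap. With LPS both shares overlapped between stages. That of Igfbp3 was 11.1% to 38.6% in embryonic LPS and 5.79% to 11.6% in adult LPS libraries. That of Igfbp4 was 0.275% to 0.881% in embryonic LPS and 0.619% to 1.46% in adult LPS libraries. These shares were not tested. With 3 libraries against 3, 2-sided exact permutation cannot give a p below 0.10.

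**Figure D2:**
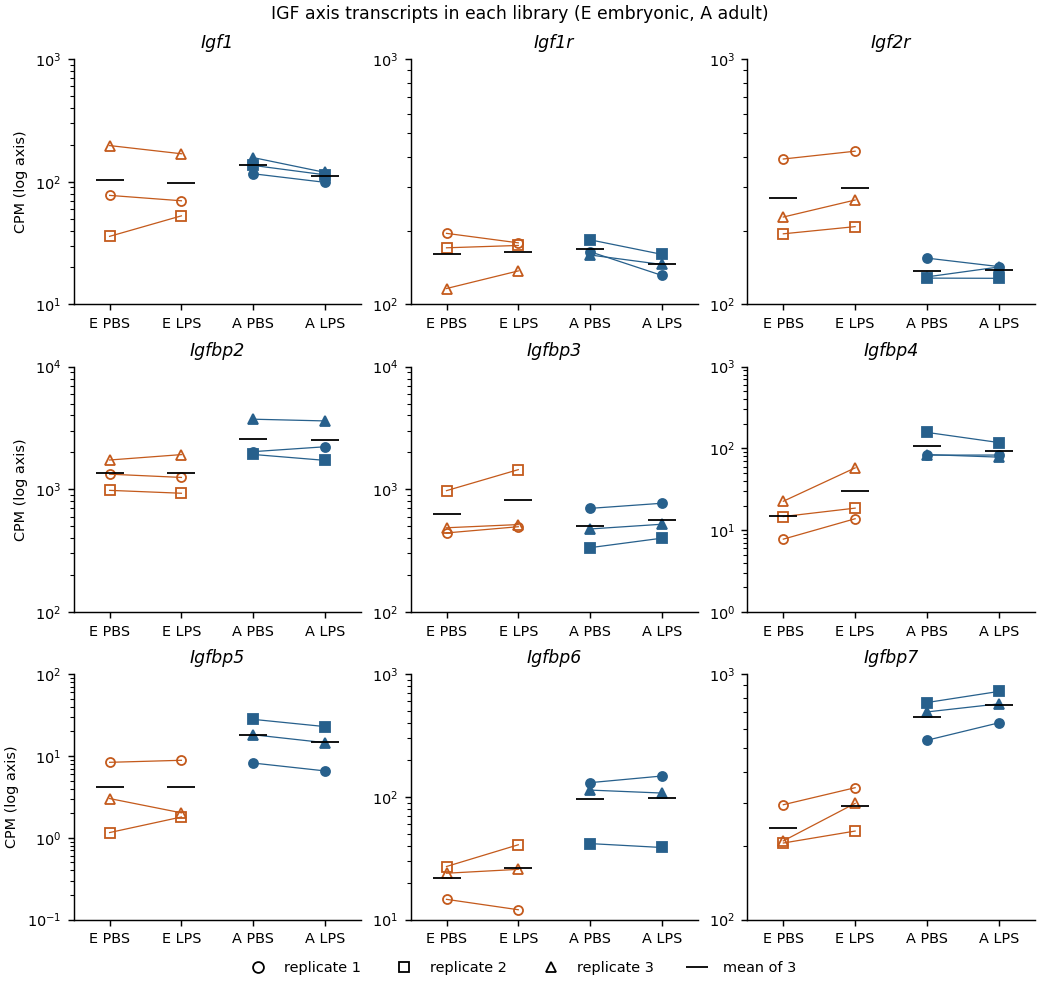
CPM of each member in each library (log axis), with embryonic libraries in orange open symbols and adult libraries in blue filled symbols. Lines join same-numbered PBS and LPS libraries, and black bars are means of 3. Igfbp7, Igf2r and Igfbp4 separate by stage under both treatments, and Igfbp6 and Igfbp2 with PBS only. Separation is a description here, and the share of all tested genes that separate is not given. Most lines between PBS and LPS are close to flat.

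The comparison of stages asked how embryonic stroma differed from adult stroma under the same treatment. Of the 9 members, 2 were lower in embryonic stroma with PBS, Igfbp4 and Igfbp7, and 1 with LPS, Igfbp7, in edgeR's quasi-likelihood test (Benjamini-Hochberg adjusted p under 0.05 over the 13038 genes tested). The background was 4.08% of all tested genes called with PBS and 5.31% with LPS. No member was called higher in embryonic stroma. Where libraries of the stages are said below not to overlap, this is a description. The share of all tested genes that separate in this way is not given. The median log2 difference of the 9 members was -0.93 with PBS and -0.88 with LPS, beside 0.018 and 0.019 over all tested genes. Both comparisons rest on the same 3 cultures of each stage, so they are not independent of each other. The fit also counts PBS and LPS libraries of a culture as separate when it estimates the spread. Such libraries deviated alike from their group means (r 0.610 to 0.850), so each p for stage may be too small.

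Igfbp7 (chr5:77349240-77408045, minus strand) encodes a secreted protein of the family that binds IGFs only weakly. Its level was 294, 205 and 209 CPM in embryonic PBS libraries 1, 2 and 3, and 538, 767 and 702 CPM in adult PBS libraries. With LPS it was 345, 230 and 298 CPM in embryonic and 634, 851 and 757 CPM in adult libraries. Every adult library was above every embryonic library. The log2 difference was -1.50 with PBS (standard error 0.21, adjusted p = 0.0056, edgeR), so embryonic stroma had a level 2.83-fold lower. With LPS it was -1.36 (standard error 0.21, adjusted p = 0.0095, edgeR), and in a fit of the 6 LPS libraries alone the adjusted p was 0.0531. In adult PBS libraries 1, 2 and 3 the endothelial marker sum was 27.3, 1855 and 403 CPM beside these Igfbp7 levels, and its part in them was not tested. Without adult PBS library 2, the log2 difference with PBS was -1.39 (adjusted p = 0.0208 for Igfbp7, edgeR). Igfbp7 shares 85 bases with Polr2b on the other strand, and only sense counts were used.

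Igfbp4 (chr11:99040005-99052655, plus strand) encodes a carrier that restrains IGF action until it is cut by the protease pappalysin 1. It was at 7.78, 14.7 and 22.6 CPM in embryonic PBS libraries, and at 82.9, 157 and 84.2 CPM in adult PBS libraries. With LPS it was at 13.8, 18.6 and 57.8 CPM in embryonic and 83.0, 118 and 78.3 CPM in adult libraries. The stages did not overlap under either treatment, although embryonic LPS library 3 came near the adult range. The log2 difference with PBS was -2.85 (standard error 0.58, adjusted p = 0.0276, edgeR), a level 7.19-fold lower in embryonic stroma. This call was lost when any of 5 of the 6 PBS libraries was left out, all but embryonic PBS library 3, with adjusted p between 0.0510 and 0.0808. With LPS the log2 difference was -1.63 (standard error 0.55) and did not pass (adjusted p = 0.117, edgeR). Without embryonic LPS library 3 it was -2.55 and passed (adjusted p = 0.0309, edgeR). Embryonic LPS library 3 and embryonic PBS library 3 also had the highest macrophage marker sums, 1857 and 2350 CPM. Adult PBS library 2, with the highest Igfbp4 level of all libraries at 157 CPM, had a macrophage marker sum of 9.30 CPM. The part of macrophage RNA in the Igfbp4 levels was not tested.

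Igf2r (chr17:12682406-12769706, minus strand) was the member with the largest positive difference. Embryonic PBS libraries had 391, 194 and 227 CPM and adult PBS libraries 154, 128 and 129 CPM. All embryonic libraries were above all adult libraries under both treatments. The log2 difference was 0.98 with PBS (standard error 0.29, adjusted p = 0.0891, edgeR) and 1.12 with LPS (standard error 0.29, adjusted p = 0.0549, edgeR), so neither passed. DESeq2 called it in both comparisons, with adjusted p = 0.0217 and 0.0060. Airn, an antisense transcript that overlaps Igf2r, had 532 sense counts over all 12 libraries together.

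Igfbp6 (chr15:102144186-102149512, plus strand), a carrier with a preference for IGF2, was at 14.6, 27.1 and 23.9 CPM in embryonic PBS libraries and at 131, 41.6 and 114 CPM in adult PBS libraries. These ranges did not overlap, whereas with LPS embryonic library 2 (40.7 CPM) was above adult library 2 (38.7 CPM). With PBS the log2 difference of -2.13 did not pass (standard error 0.60, adjusted p = 0.0768, edgeR). DESeq2 called Igfbp6 with PBS and with LPS, with adjusted p = 0.0036 and 0.0098. Igfbp2 and Igfbp5 are neighbours on chromosome 1, 5.59 kb apart on opposite strands, at chr1:72824480-72852474 and chr1:72858065-72874865. Igfbp2 was at 1329, 981 and 1734 CPM in embryonic PBS and at 2028, 1924 and 3730 CPM in adult PBS libraries, which do not overlap. Its log2 difference of -0.93 did not pass (standard error 0.38, adjusted p = 0.212, edgeR). Igfbp5, the least abundant member, was at 8.38, 1.16 and 3.02 CPM in embryonic PBS and at 8.21, 28.1 and 18.2 CPM in adult PBS. Embryonic library 1 lay inside the adult range, and the log2 difference was -2.12 (standard error 0.85, adjusted p = 0.199, edgeR).

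Igf1, Igf1r and Igfbp3 overlapped between stages under both treatments. Igf1 (chr10:87858265-87937047, plus strand) was at 77.4, 35.9 and 197 CPM in embryonic PBS and at 116, 136 and 157 CPM in adult PBS libraries. The 3 embryonic PBS libraries spanned 5.50-fold, so the 95% interval of the log2 difference was wide, from -1.49 to 0.69. The embryonic culture with the highest Igf1, number 3, also had the highest macrophage and proliferation marker sums, 2350 and 322 CPM with PBS. In adult PBS libraries 1, 2 and 3 the macrophage sums were 108, 9.30 and 27.4 CPM. The proliferation sums there were 102, 280 and 151 CPM, and neither had the order of Igf1. The part of these cells in the Igf1 levels was not tested. Igf1r (chr7:67952257-68233668, plus strand) was the steadiest member, at 195, 170 and 116 CPM in embryonic PBS and 164, 183 and 159 CPM in adult PBS. Its log2 difference was -0.07 with a 95% interval from -0.43 to 0.28. Igfbp3 (chr11:7206086-7215498, minus strand), the main carrier of IGFs in serum, was at 441, 975 and 486 CPM in embryonic PBS and at 699, 334 and 475 CPM in adult PBS, with a log2 difference of 0.33 (95% interval -0.62 to 1.28).

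**Figure D3:**
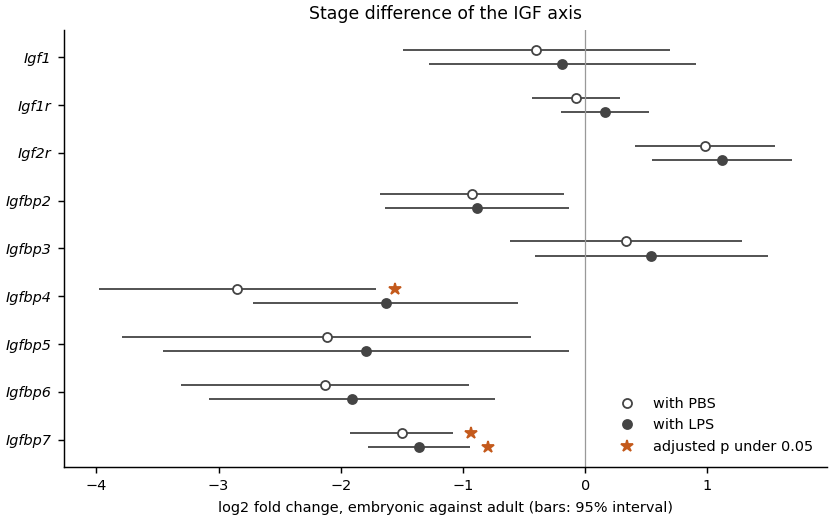
Log2 fold change of embryonic against adult stroma for each member, with PBS (open circles) and with LPS (filled circles). Bars are normal 95% intervals of the edgeR estimate, which are narrower than the test implies. For Igfbp5 with LPS the bar runs from -3.45 to -0.14, although the unadjusted p is 0.0593 (edgeR). Stars mark an adjusted p under 0.05, reached by Igfbp7 under both treatments and by Igfbp4 with PBS only. Igfbp5 and Igfbp6 have negative estimates with wide bars.

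The second question was whether LPS stimulation changed these genes in either stage. Cxcl1, Il6, Ccl2 and Nfkbia, genes known to respond to LPS, rose together from 26.9 to 33.1 CPM in embryonic PBS libraries to 1196 to 3239 CPM with LPS, and from 86.6 to 121 CPM to 2498 to 3499 CPM in adult libraries. In the fit without a replicate block, none of the 9 members passed in embryonic or adult stroma (edgeR, adjusted p under 0.05). None reached an unadjusted p under 0.05 in either stage, and DESeq2 also called 0. The median log2 fold change of the 9 members was 0.14 in embryonic and -0.02 in adult stroma, beside -0.00027 and -0.0075 over all tested genes. The background was 2.75% of all tested genes called in embryonic and 0.606% in adult stroma. Same-numbered LPS and PBS libraries departed from their groups in like ways, so the number was also used as a block within each stage. With this replicate block 12.5% of all tested genes were called in embryonic and 6.2% in adult stroma.

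With the replicate block, 2 of the 9 members rose in embryonic stroma, Igfbp4 and Igfbp7. Igfbp4 rose by 0.85 on the log2 scale (standard error 0.18, adjusted p = 0.0189, edgeR), and the LPS library was 1.78, 1.27 and 2.56 times its PBS partner in cultures 1, 2 and 3. Igfbp7 rose by 0.30 (standard error 0.08, adjusted p = 0.0487, edgeR), with ratios of 1.17, 1.12 and 1.42. Both were higher with LPS in 3 of 3 embryonic pairs. Their calls depended on which libraries were in the fit. Leaving out a library takes its whole pair out of this comparison. Without library 1 or 3 of either embryonic group no member was called, and the Igfbp4 estimate ran from 0.54 to 1.12 over all left-out libraries with adjusted p from 0.0035 to 0.0837. Igfbp7 kept its call only without library 2 of either embryonic group, and its adjusted p reached 0.230 (edgeR). It thus lost its call without any of the adult libraries too, although the embryonic pairs were complete there. The macrophage marker sum went from 232 to 175 CPM in embryonic culture 1, from 353 to 888 CPM in culture 2 and from 2350 to 1857 CPM in culture 3 with LPS. Within that list, Emr1 went from 13.3, 24.5 and 137 CPM to 18.7, 99.4 and 224 CPM and Ptprc from 7.53, 9.76 and 59.2 CPM to 19.6, 64.5 and 162 CPM, and both rose with the block (adjusted p = 0.0313 and 0.0028, edgeR). The rest of the list was not called. Block estimates were negative for Csf1r (-0.66), Mrc1 (-0.32), Tyrobp (-0.19) and C1qa (-0.045). They were positive for C1qc (0.031), Mpeg1 (0.12), Itgam (0.16) and C1qb (0.36). The part of macrophage RNA in the Igfbp4 and Igfbp7 changes was not tested.

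In adult stroma no member was called with the replicate block, and 1, Igf1r, had an unadjusted p under 0.05. Igf1r was at 164, 183 and 159 CPM with PBS and at 131, 160 and 145 CPM with LPS, lower in each of the 3 pairs. On the log2 scale it differed by -0.22 (standard error 0.08, adjusted p = 0.215 in edgeR). Igf1 was also lower with LPS in 3 of 3 adult pairs, from 116, 136 and 157 CPM to 98.9, 114 and 119 CPM, with a log2 fold change of -0.30 in the block fit (adjusted p = 0.321, edgeR). It passed with that block when library 2 of either embryonic group was left out (adjusted p = 0.0292 and 0.0307, edgeR). The estimate stayed at -0.30, since these omissions touch the adult libraries only through settings that all libraries share. Either omission breaks the same embryonic pair, so they are not separate results. Igfbp5 was lower in 3 of 3 adult pairs by nearly the same ratio, 0.801, 0.816 and 0.7999. In embryonic cultures its ratios were 1.06, 1.55 and 0.669, at levels of 1.16 to 8.87 CPM. Igfbp3 was higher with LPS in all 3 embryonic pairs, with ratios of 1.12, 1.48 and 1.06, and in all 3 adult pairs, with ratios of 1.10, 1.20 and 1.09, and passed in neither (adjusted p = 0.114 and 0.429, edgeR with the block). Igfbp7 was also higher with LPS in 3 of 3 adult pairs, with ratios of 1.18, 1.11 and 1.08 and a block estimate of 0.16 (adjusted p = 0.345, edgeR). Igf2r, Igfbp2 and Igfbp6 were close to level in adult stroma, with block estimates of 0.0052, -0.02 and 0.00018.

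**Figure D4:**
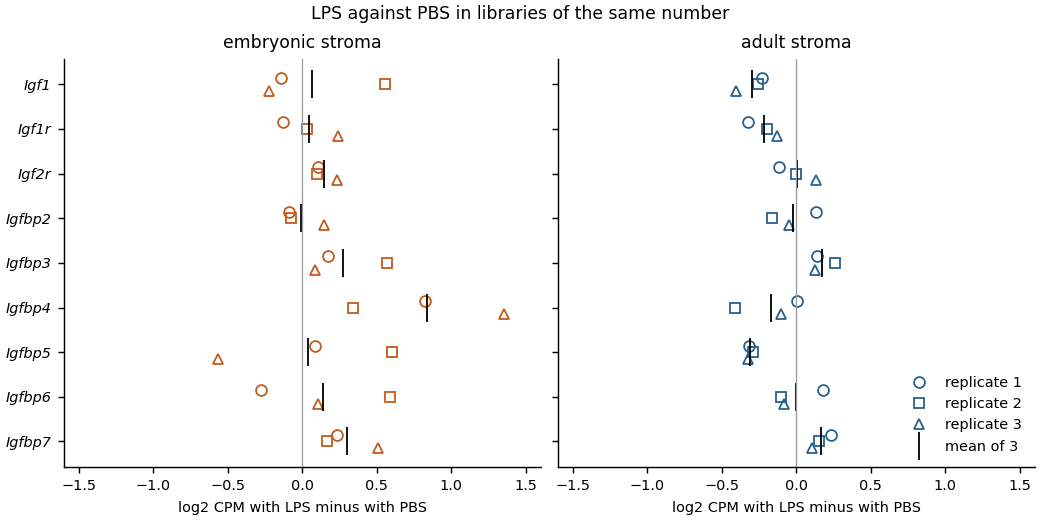
Log2 CPM with LPS minus log2 CPM with PBS for libraries of the same number, in embryonic (left) and adult (right) stroma. Each symbol is 1 pair and the vertical bar is the mean of 3; in embryonic stroma Igfbp4 has its 3 pairs at 0.82, 0.34 and 1.35, and in adult stroma all pairs of all members lie between -0.41 and 0.26.

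The interaction asked whether the LPS effect differed between stages. No member passed, without a block (0 of 9 by edgeR and by DESeq2, 0 at an unadjusted p under 0.05) or with it (0 of 9, 1 at an unadjusted p under 0.05). Over all tested genes the background was 0% without the block, where 293 genes had an unadjusted p under 0.05, and 0.844% with it. Igfbp4 had the largest member estimate, 1.03 on the log2 scale with the block (standard error 0.24, adjusted p = 0.172, edgeR). It passed with the block when library 2 of either embryonic group was left out (log2 1.29, adjusted p = 0.0293 and 0.0297, edgeR). Either omission breaks the same embryonic pair, so these are not separate results.

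The sum of squares of log2 CPM over the 12 libraries was divided between stage, LPS, their interaction, culture within stage and the rest. Culture within stage held a larger share than LPS in each member, with its smallest share in Igfbp7 (7.78% against 2.33% for LPS). The culture term spans 3 cultures in each stage, whereas LPS is a single contrast, so these shares are not on a like scale. The LPS term accounted for at most 4.03% for any member (Igf1r), below the 4.43% that was the median over all tested genes. The interaction of stage and LPS accounted for 9.81% of the variation of Igf1r and 3.37% of Igfbp4, beside a median of 1.27%. Stage accounted for 89.2% of the variation of Igfbp7, 76.1% of Igfbp4, 71.0% of Igf2r and 66.4% of Igfbp6, beside a median of 16.3%. Culture within stage accounted for 84.3% of the variation of Igfbp3, 78.6% of Igf1 and 77.5% of Igf1r, beside a median of 48.2%. These shares are a description of 3 cultures a stage.

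Some of the binding proteins fell into opposite orders among the cultures of a stage. Igfbp3 and Igfbp6 were lowest in embryonic culture 1 and highest in culture 2, and lowest in adult culture 2 and highest in culture 1, with PBS and with LPS. Igfbp5 and Igfbp7 had exactly the reverse order in each of the 4 groups. Igfbp2 followed neither order, at 1329, 981 and 1734 CPM in embryonic PBS and 2028, 1924 and 3730 CPM in adult PBS. Igfbp4 followed neither in embryonic PBS (7.77, 14.7 and 22.6 CPM). In adult PBS (82.9, 157 and 84.2 CPM) it had the order of Igfbp5 and Igfbp7. The mesothelial marker sum had the order of Igfbp3 and Igfbp6 in each of the 4 groups, for instance 1302, 468 and 647 CPM in adult PBS beside 699, 334 and 475 CPM of Igfbp3. PBS and LPS libraries share cultures, so these are not 4 separate orders. In embryonic PBS the sums of cultures 1 and 3 were close, 125 and 127 CPM. Upk3b and Upk1b were higher there in culture 1 (36.5 and 37.3 CPM) than in culture 3 (24.7 and 31.1 CPM), and Msln and Lrrn4 were lower. In adult PBS Lrrn4 was at 94.8, 96.9 and 35.6 CPM, unlike the order of the sum. The part of mesothelial RNA in these levels was not tested. The endothelial sum in adult PBS, 27.3, 1855 and 403 CPM, had the order of Igfbp5 and Igfbp7, whereas in embryonic PBS it was 34.9, 15.7 and 11.1 CPM and did not follow it. The macrophage sum in adult PBS, 108, 9.30 and 27.4 CPM, had the order of Igfbp3 and Igfbp6. In embryonic PBS it was 232, 353 and 2350 CPM and did not. The sum of 6 smooth muscle markers in embryonic PBS, 14290, 6726 and 10133 CPM, had the order of Igfbp5 and Igfbp7. In adult PBS it was 7923, 5386 and 7921 CPM and did not. The part of these cell types was not tested.

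**Figure D5:**
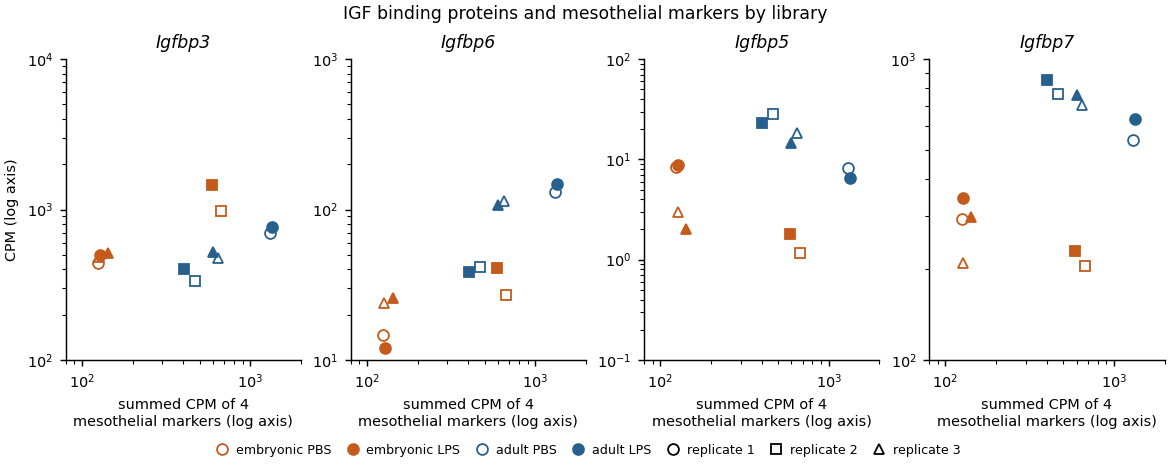
CPM of 4 binding proteins (log axis) against the summed CPM of 4 mesothelial markers (log axis) in each of the 12 libraries. Orange is embryonic and blue adult, open symbols are PBS and filled symbols LPS; within each stage Igfbp3 and Igfbp6 are higher, and Igfbp5 and Igfbp7 lower, in cultures with more mesothelial marker RNA.

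Over the 12 libraries, the tested genes whose log2 CPM was most like that of a member were found by Pearson correlation, as a description in which stage and culture are shared by all points. For Igfbp7, Dnajc10 was among them (r = 0.969). For Igfbp4 they were C4b (0.959), Ccdc109b (0.956) and Naprt1 (0.954), and for Igf2r they were Reep1 (0.968), Ust (0.967) and Leprel1 (0.967). Those of Igf1 were B3galnt1 (0.978), Siae (0.950) and Man2c1 (0.938), and those of Igf1r were Pop4 (0.898), Atrn (0.898) and Mob4 (0.888). Igfbp2 was most like Heph (0.977), Omd (0.964) and Sspn (0.961), and Igfbp3 most like Gabra3 (0.980), Tsc2 (0.980) and Atp6v1f (0.978). Igfbp5 was most like Podxl2 (0.942), Glis3 (0.940) and Hecw1 (0.939), and Igfbp6 most like H2-DMb1 (0.983), Sulf1 (0.976) and Aggf1 (0.974). No member was among the 3 genes most like another member.

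Of 37 other genes of the IGF and insulin pathway, 31 were tested. Among ligands, receptors and carriers, Igf2, the second IGF ligand, was at 593, 82.9 and 64.0 CPM in embryonic PBS and 19.6, 33.7 and 4.12 CPM in adult PBS libraries. These ranges did not overlap, but the spread between cultures was large and the log2 difference of 3.69 did not pass (standard error 1.33, adjusted p = 0.151, edgeR). The insulin receptor Insr was at 34.4 to 40.2 CPM in embryonic PBS and 28.2 to 35.7 CPM in adult PBS and did not pass (adjusted p = 0.297, edgeR). Igfbp1, which lies 3.54 kb from Igfbp3 on chromosome 11, had no count in 11 of 12 libraries and was not tested, and neither was Igfals, the carrier subunit of serum complexes. Pappa, the protease that cuts IGFBP4, had means of 180 CPM in embryonic and 310 CPM in adult PBS (log2 difference -0.78, adjusted p = 0.479, edgeR).

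Between stages with PBS, 1 of the 31 other pathway genes was called higher and 2 lower in embryonic stroma, and with LPS 1 higher and 3 lower. Over all tested genes, 4.08% were called with PBS and 5.31% with LPS. Grb10, an adaptor that dampens IGF1 and insulin receptor signalling, had means of 824 and 411 CPM with PBS, higher in embryonic stroma by 1.00 on the log2 scale (standard error 0.22, adjusted p = 0.0362, edgeR). Foxo1, a transcription factor that AKT keeps out of the nucleus, had means of 25.1 and 48.8 CPM (log2 difference -0.96, standard error 0.17, adjusted p = 0.0167, edgeR). Socs2, which restrains growth hormone signalling, was at 11.99, 20.03 and 21.3 CPM in embryonic and 74.0, 59.6 and 91.7 CPM in adult PBS libraries, a log2 difference of -2.08 (standard error 0.27, adjusted p = 0.0035, edgeR). All 3 were also called in the same direction with LPS, where Shc1, an adaptor of the receptor, was lower in embryonic stroma as well (log2 difference -0.35, adjusted p = 0.0389, edgeR).

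With LPS, 1 of the 31 genes was called in embryonic stroma without a block, beside 2.75% of all tested genes. Jak2, the kinase that relays growth hormone and many cytokine receptors, went from a mean of 48.3 to 162 CPM, a rise of 1.74 on the log2 scale (standard error 0.37, adjusted p = 0.0351, edgeR). With the replicate block 4 of the 31 were called in embryonic stroma, 2 higher and 2 lower. Jak2 was among those that rose (log2 1.63, adjusted p = 0.0072, edgeR). Grb10 (log2 -0.30, adjusted p = 0.0454, edgeR) and Pik3r2, a regulatory subunit of PI3K (log2 -0.36, adjusted p = 0.0124, edgeR), fell. The block fit called 12.5% of all tested genes in embryonic stroma. In adult stroma none of the 31 was called without a block. There 5 had an unadjusted p under 0.05 by edgeR, beside 727 of all 13038 tested genes. With the block Jak2 (log2 1.27, adjusted p = 0.0320, edgeR) and Stat5a (log2 1.99, adjusted p = 0.0255, edgeR), another part of the growth hormone relay, rose, beside 6.2% of all tested genes called. The insulin receptor substrate Irs2 went from means of 15.9 to 9.68 CPM in embryonic and from 16.6 to 11.2 CPM in adult stroma and passed in neither (adjusted p = 0.228 and 0.824, edgeR). Irs1 had log2 fold changes of 0.16 and -0.23 and did not pass either (adjusted p = 0.999 and 1, edgeR).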

How the data were processed

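Strand-specific poly(A) libraries of 12 samples were read as single ends. The authors trimmed reads, mapped them to GRCm38.p6 (mm10 in the submitters' notes) with STAR under a limit of 1 mismatch, discarded reads with several map positions, and deposited raw counts per gene, without normalization. Rows that name no gene held 17.4% to 19.9% of the reads in the sense column and were left out. The counter was not given in the sources used here. Groups came from the labels.

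Counts of the sense column were fitted with edgeR 4.0.16 under R 4.3.3 (TMM, quasi-likelihood test of 1 model with 4 groups) after the filter in the study's methods, CPM above 0.5 in all samples of a group, which left 13038 genes. P-values were Benjamini-Hochberg adjusted over these, and genes with an adjusted p under 0.05 were called. The standard error was the log2 fold change divided by the square root of F, and 95% intervals are normal. DESeq2 1.42.0, RLE factors, no filter, a log2 fold change of at least 2, counts of both strands, the libraries of a contrast alone, a replicate block and each library left out were alternatives; the left-out libraries in the block fit were added after seeing the data. Same-numbered LPS and PBS libraries of a stage correlated in their deviations from group means (r 0.610 to 0.850, against -0.749 to 0.022 for other pairs). The pairing rests on these numbers in the labels. P-values measure the spread between these libraries, and floors cover counting error only. Library pairs of a group differed by a chi-square per gene of 33.2 to 295, so none repeats another. Log2 CPM used a prior count of 2. Exon lengths are unions of GENCODE exons, so a gene with long unused exons is set too low per kb. Promoters came from RefSeq, and all 9 members matched. Figures used Python 3.11.15 and matplotlib 3.10.9. Scripts were tested on simulated counts (random seed 1).

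The members and gene lists were chosen with earlier results of these data known. All 9 members were named, with Igf2, Insr, Irs1, Irs2 and Pappa, the 3 largest called changes of other pathway genes in each comparison, and the 3 genes most correlated with each member. Some genes that this rule takes are not reported here. Other genes named are those that a count of 5 or fewer refers to, and markers.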

Additional observations from a re-analysis of the deposited data

How the results depend on the processing

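The Igfbp7 difference between stages kept its direction and call without any 1 of the 12 libraries, and lost its call with LPS in the fit of the 6 LPS libraries alone, where 0 members were called. With a replicate block, members called were 2 for LPS in embryonic stroma, 4 for stage with PBS and 3 with LPS, and all genes called were 1635 and 808 for LPS in embryonic and adult stroma, 110 for the interaction and 891 and 1059 for stage with PBS and LPS. Same-numbered libraries of the 2 stages did not correlate positively in their deviations from group means. Their r was -0.306 to -0.0022, against -0.0923 to 0.236 for unlike numbers. No source says what a number shares across stages. The deposited tables of a number share a prefix in their names in all 4 groups, with no stated meaning. With that block Igf2r passed for stage (adjusted p = 0.0262 with PBS and 0.0157 with LPS, edgeR), as did Igfbp2 (adjusted p = 0.0044 and 0.0052, edgeR) and Igfbp7 (adjusted p = 0.0086 and 0.0134, edgeR), and Igfbp4 passed with PBS (adjusted p = 0.0127, edgeR) but not with LPS (adjusted p = 0.0576, edgeR). For LPS in embryonic stroma the replicate block turned Igf1 to 0.055 and Igfbp2 to -0.0070. DESeq2 called 4 members in each stage comparison and 684, 294, 25, 1552 and 1704 genes in the order above. A log2 fold change of at least 2 left 1 member and 291 genes for stage with PBS (532 without it) and 0 members and 385 genes with LPS (692 without it). Only the libraries of the contrast gave 4 and 227 genes for LPS (358 and 79 with all) and 173 and 70 for stage. Igf2r in adult stroma, 0.0018 for LPS, was -0.010 with DESeq2 and with RLE factors, -0.0071 without the filter, -0.00016 with both strands and -0.0025 with the contrast alone. Without the filter Igf1r, Igfbp2 and Igfbp5 in embryonic stroma were -0.0039, -0.0020 and -0.00099. Leaving out 1 library gave 95 to 471 genes for LPS in embryonic and 4 to 145 in adult stroma, 152 to 638 genes and 1 to 2 members for stage with PBS, and 132 to 814 genes and 1 to 2 members with LPS. In the block fit it gave 0 to 2 members for LPS in embryonic stroma, 0 to 1 in adult stroma and 0 to 1 for the interaction. It turned the sign of estimates that were not called. For LPS in embryonic stroma they ran from -0.78 to 0.78 (Igf1), -0.16 to 0.17 (Igf1r), -0.19 to 0.49 (Igf2r), -0.33 to 0.24 (Igfbp2), -0.33 to 0.83 (Igfbp3), -1.13 to 1.00 (Igfbp5) and -0.22 to 0.60 (Igfbp6). In adult stroma they ran from -0.045 to 0.096 (Igf2r), -0.38 to 0.35 (Igfbp2), -0.13 to 0.48 (Igfbp3), -0.42 to 0.16 (Igfbp4), -0.78 to 0.15 (Igfbp5) and -0.39 to 0.42 (Igfbp6). For stage with PBS they ran from -1.27 to 0.0018 (Igf1), -0.24 to 0.11 (Igf1r) and -0.12 to 0.65 (Igfbp3), and with LPS from -0.87 to 0.11 (Igf1) and -0.16 to 0.84 (Igfbp3). The cause was not tested. The lowest member level, 1.16 CPM, was above the floor of 0.0897 to 0.145 CPM, and each stage had 3 cultures.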
